A study of Mus musculus with 2 samples.

Results

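The results concern 10 microRNA genes that lie in introns of genes with neuronal functions, out of 1973 microRNA genes measured in the embryonic mouse forebrain. They were taken by name from the annotation and paired with their hosts: Mir708 in Tenm4, Mir488 in Astn1, Mir592 in Grm8, Mir139 in Pde2a, Mir326 in Arrb1, Mir342 in Evl, Mir504 in Fgf13, Mir582 in Pde4d, Mir598 in Xkr6 and Mir346 in Grid1. No measured value entered this choice, but the genes were proposed with earlier results of these data known. Small RNA libraries had been made from forebrain of B6NCrl embryos at embryonic day 13.5, limited to RNA under 30 nucleotides. There were 2 libraries of 1 group, which the labels call biological replicates 1 and 2, from healthy embryos with the sexes pooled; the labels name no treatment. Both name 1 donor identifier and differ in their biosample, so the spread between them may be partly technical. All 10 genes had at least 10 counts in each library, the limit used here for calling a gene detected, against 377 of the 1973 genes.

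MicroRNAs are cut from hairpins in longer transcripts, first in the nucleus by Drosha and then in the cytoplasm by Dicer, and guide Argonaute proteins to messenger RNAs. Pairing is led by the seed, bases 2 to 8 from the 5′ end of the mature RNA. A microRNA in an intron on the strand of its host can be made from the host's own transcript, and its supply is then tied to transcription of the host. At this embryonic stage the forebrain holds dividing progenitors and young neurons, with vessels, choroid plexus and immune cells among them. Host messenger RNA was not measured, and the counts do not separate the arms of a hairpin.

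The mature sequences (RefSeq, GRCm38.p6) are shown for arms of the leading genes and for arms that share a seed or part of one with another microRNA, with the seed in capitals. Mature entries matched 9 of the 10 genes by symbol (not Mir598), giving 17 arms with 17 different seeds, so no seed was shared within the set.
miR-342-5p: aGGGGUGCuaucugugauugag
miR-342-3p: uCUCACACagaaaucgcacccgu
miR-708-5p: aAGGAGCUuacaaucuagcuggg
miR-28a-5p: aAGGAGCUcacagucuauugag
miR-139-5p: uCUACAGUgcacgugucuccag
miR-582-5p: aUACAGUUguucaaccaguuac
miR-326-3p: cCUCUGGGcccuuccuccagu
miR-330-5p: uCUCUGGGccugugucuuaggc
miR-346-3p: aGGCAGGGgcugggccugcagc
Outside the set, miR-708-5p has the seed of miR-28a-5p, and the pair is identical at 16 of 22 positions counted from the 5′ end. The seed of miR-326-3p is that of miR-330-5p, with 12 of 21 positions identical. A further relative, miR-7001-5p, has the seed of miR-346-3p, and its gene Mir7001 had 0 counts in both libraries.

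All 10 hairpins lie on the strand of their host and overlap no exon of its protein-coding transcripts (GENCODE M21). In the coding transcript with the longest reading frame, 4 of the 10 lie in the first intron: Mir708, Mir598, Mir326 and Mir582. The introns are long, with a median of 90.7 kb, against 8.75 kb for all 688 microRNA genes found in introns of protein-coding genes on the same strand. In the named hosts 9 of the 10 introns are over 20 kb. Where coding hosts overlap, the 688 were counted in the longest, which puts Mir139 in Gm45837. Counted so, 4 of the 10 genes and 19.5% of the 688 lie in a first intron. An intron over 20 kb holds 8 of the 10 genes and 40.4% of the 688. The longest is the Pde4d intron around Mir582, at 623 kb, followed by the Grm8 intron around Mir592 at 219 kb and the Xkr6 intron around Mir598 at 191 kb. Mir488 is the exception among the 10, in an Astn1 intron of 4.38 kb and only 0.155 kb downstream of an exon. The nearest exon of the other 9 is 5.52 kb away or farther, while 46.9% of the 688 lie within 1 kb of one. Since these hosts are long genes, with a median of 418 kb against 79.0 kb, the difference in intron length is a description of the choice of hosts and was not tested.

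**Figure D1:**
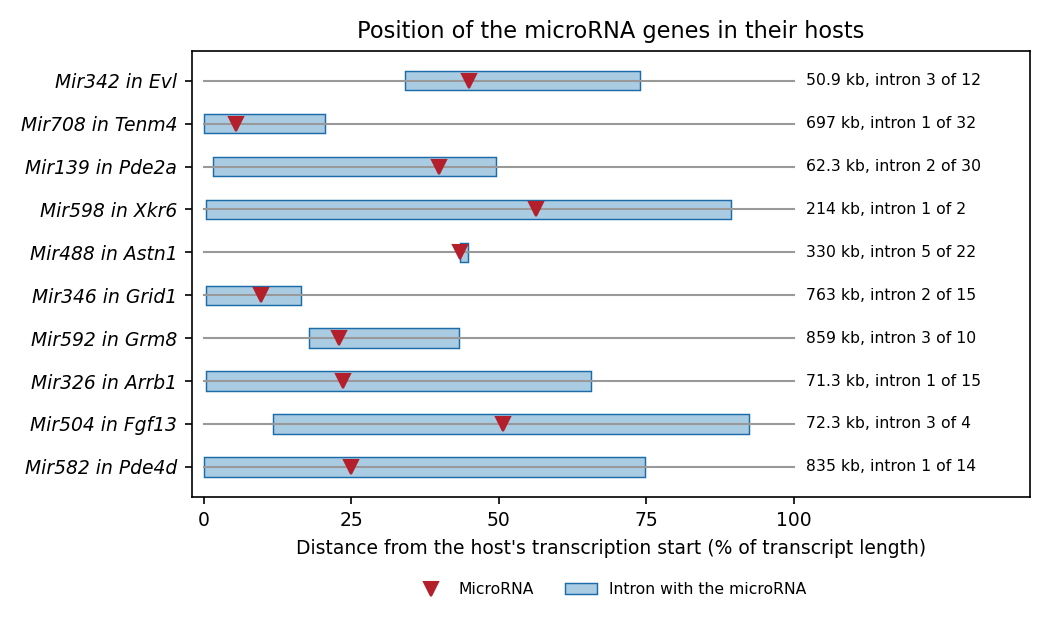
Position of each microRNA gene (triangle) in the coding transcript of its host with the longest reading frame, drawn as a line from start to end; the x axis is the distance from the transcription start in percent of the transcript's length, and boxes are the intron that holds the microRNA. Introns 1 to 3 hold all but Mir488, which lies at the upstream edge of a short intron 5.

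Replicate 1 held 4117752 reads counted on microRNA genes and replicate 2 held 3908953, out of 10631040 and 10452225 reads. Levels are in CPM, own-strand counts relative to 1000000 gene counts, and are means ± SD of the 2 libraries. A read spans a mature microRNA, so levels were not divided by length, and unequal capture of different microRNAs was not measured. The listed forebrain markers are all also on a list of neural progenitor and neuron microRNAs, so they do not mark forebrain alone. Among them, Mir92b stood at 13430 ± 660 CPM, Mir137 at 7852 ± 1559 and Mir9-3, which has copies, at 738 ± 22.2. Mir9-2, which has copies too, had 20 and 18 counts in replicates 1 and 2. The 3 genes of miR-124, which also have copies, had 3 to 20 counts in each library. Multi-mapped reads are not counted on genes, so the counts of genes with copies may be too low. The Hox-embedded microRNAs of hindbrain, spinal cord and trunk summed to 370 ± 108 CPM.

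Reads of the 10 genes summed to 1.96% of replicate 1's gene counts, with a 95% Wilson interval from 1.94 to 1.97. The sum was 1.89% for replicate 2 (interval 1.87 to 1.90), and the mean 1.92% ± 0.0488. Their reads were concentrated in 4 genes, Mir342, Mir708, Mir139 and Mir598, which made up 97.8% of them in replicate 1 and 97.9% in replicate 2. The other 6 held 0.0407% ± 0.00208 of all gene counts. From the highest, Mir342, to the lowest, Mir582, mean levels spanned 733-fold, or 1134-fold in replicate 1 and 514-fold in replicate 2.

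**Figure D2:**
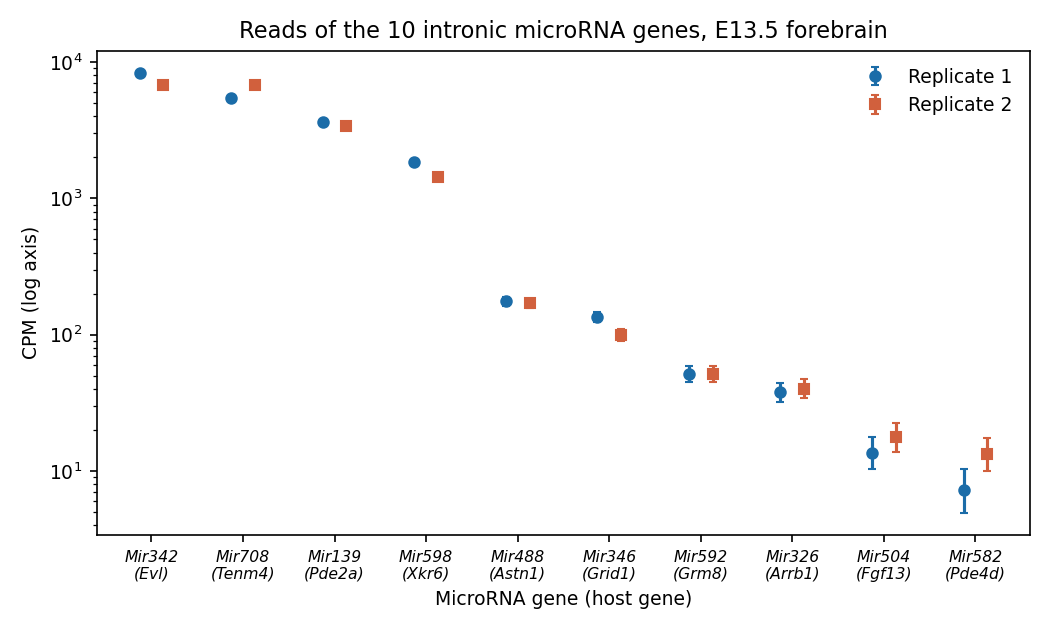
Level of each of the 10 genes in replicate 1 (circles) and replicate 2 (squares), in CPM on a log axis; bars are exact 95% Poisson intervals, which cover counting error only and are smaller than the symbols at high levels. Mir342, Mir708, Mir139 and Mir598 lie above 1000 CPM, and the other 6 lie below 200 CPM.

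The hosts were grouped by role after the levels had been seen, so sums by group are descriptions only. Of the reads of the 10 genes, most lay in microRNAs of the adhesion and cytoskeleton hosts. These 3 microRNAs held 1.38% ± 0.00242 of the gene counts, nearly all of it from Mir342 and Mir708. The small SD of this sum hides opposite moves, since Mir342 was lower and Mir708 higher in replicate 2. A link between the role of a host and the level of its microRNA was not tested. Mir342 (ENSMUSG00000065436.1) lies on chromosome 12 at 108658620 to 108658718 (GRCm38, as below), in intron 3 of Evl, an Ena/VASP protein that elongates actin filaments. It had 34005 counts in replicate 1 and 26725 in replicate 2, which is 8258 and 6837 CPM, or 7548 ± 1005. Mir342 ranked 25 among all genes and 11 among the 153 detected genes in coding introns. The microRNA is also known from blood cells, and the leukocyte and microglia markers were far below it. Mir155 had 163 ± 9.33 CPM, and Mir342 exceeded it 48.6-fold in replicate 1 and 43.7-fold in replicate 2. The 4 measured markers of that list summed to 274 CPM in replicate 1 and 278 in replicate 2. That sum leaves out reads at Mir142b, which had 0 counts on its own strand but 704 and 657 on the other, the strand of the leukocyte microRNA miR-142. With either strand counted, Mir142b had about as many reads as Mir155, whose counts were 699 and 612. The part of leukocytes in the level of Mir342 was not tested.

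Mir708 (ENSMUSG00000076143.1) lies on chromosome 7 at 96249424 to 96249532, in the first intron of Tenm4, a teneurin that acts in cell adhesion and axon guidance. It had 22352 and 26662 counts in replicates 1 and 2, or 5428 and 6821 CPM, a mean of 6124 ± 985, and ranked 35. Unlike Mir342, it was higher in replicate 2. Mir708 was also the only one of the 10 with a copy, meaning another annotated microRNA transcript that shares a stretch of at least 20 nucleotides. Gm23134 on chromosome 2 shares 23 nucleotides with it, including 22 of the 23 bases of miR-708-5p, and had 62 and 44 counts. The tables keep multi-mapped reads apart from the genes, so reads of miR-708-5p that end within the shared stretch may be missing from the count of Mir708. Its seed relative Mir28a, in an intron of Lpp, had 1910 and 2056 counts (495 ± 43.9 CPM), and Mir708 stood 11.7-fold above it in replicate 1 and 13.0-fold in replicate 2. Mir28a has a copy too.

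Mir488 (ENSMUSG00000070103.2), on chromosome 1 at 158505625 to 158505733, lies in intron 5 of Astn1, an astrotactin by which young neurons hold on to glial fibres during migration. It had 722 and 664 counts, or 175 and 170 CPM, a mean of 173 ± 3.87. The libraries thus gave nearly the same level, lower than that of Mir708 by 31.0-fold in replicate 1 and 40.2-fold in replicate 2.

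Both cyclic nucleotide phosphodiesterases among the hosts, enzymes that end cAMP and cGMP signals, hold a microRNA, and these stood far apart in level. Mir139 (ENSMUSG00000065446.1), on chromosome 7 at 101475376 to 101475443, lies in intron 2 of Pde2a, where the coding gene Gm45837 overlaps too, and had 14920 and 13288 counts. This is 3623 and 3399 CPM, a mean of 3511 ± 158. Mir582 (ENSMUSG00000076946.2), on chromosome 13 at 109324744 to 109324824, lies in the first intron of Pde4d and had 30 and 52 counts, or 7.29 and 13.3 CPM, a mean of 10.3 ± 4.25. Mir139 exceeded it 497-fold in replicate 1 and 256-fold in replicate 2. Mir582 was the lowest of the 10 in both libraries, and its Poisson intervals, 4.92 to 10.4 and 9.94 to 17.4 CPM, met only at their edges.

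In the group of hosts that are glutamate receptors, or that switch receptors off, the 3 microRNAs summed to 0.0208% ± 0.00241 of the gene counts. Mir346 (ENSMUSG00000065481.1; chromosome 14, 34894609 to 34894706) lies in intron 2 of Grid1, which encodes a delta-type glutamate receptor that organises synapses. It had 559 and 388 counts, or 136 and 99.3 CPM, a mean of 118 ± 25.8, lower in replicate 2. Mir592 (ENSMUSG00000076067.1; chromosome 6, 27936655 to 27936750) lies in intron 3 of Grm8, a presynaptic metabotropic glutamate receptor, and had 212 and 202 counts. Its levels of 51.5 and 51.7 CPM differed least between the libraries in absolute terms, at 51.6 ± 0.136. Mir326 (ENSMUSG00000065571.1; chromosome 7, 99552269 to 99552363) lies in the first intron of Arrb1, a beta-arrestin that uncouples G-protein-coupled receptors. It had 156 and 157 counts, or 37.9 and 40.2 CPM, a mean of 39.0 ± 1.61. The gene of its seed relative, Mir330 in an intron of Eml2, had 1820 and 1706 counts and stood above it by 11.7-fold and 10.9-fold. Between these genes, then, most reads lay with the partner outside the set, the reverse of Mir708 and Mir28a. Since the counts do not separate the arms, which arm with the shared seed had more reads is not known for either pair.

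The remaining hosts are Xkr6, an XK-related membrane protein, and Fgf13, an intracellular fibroblast growth factor homologue that binds sodium channels and microtubules. Mir598 (ENSMUSG00000076049.3; chromosome 14, 63727189 to 63727267), in the first intron of Xkr6, had 7574 and 5596 counts, or 1839 and 1432 CPM, a mean of 1635 ± 288. Mir504 (ENSMUSG00000070110.2; chromosome X, 59097658 to 59097736), in intron 3 of Fgf13, had 56 and 69 counts, or 13.6 and 17.7 CPM, a mean of 15.6 ± 2.87. The former was lower in replicate 2 and the latter higher.

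Both libraries put the 10 genes in 1 order, and the ranges of none of the 9 neighbouring pairs overlapped. With 2 values a gene this is a weak statement for the closest pairs. Mir342 stood 1.52-fold above Mir708 in replicate 1, while in replicate 2 their counts of 26725 and 26662 differed by a factor of 1.00 and their Poisson intervals overlapped. Intervals also overlapped between Mir592 and Mir326 in replicate 2 and between Mir504 and Mir582 in both libraries. Overlap of intervals is not a test of the difference within a pair, which was not made. The widest step was from Mir598 down to Mir488, at 10.5-fold in replicate 1 and 8.43-fold in replicate 2.

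By median level the 10 genes were not set apart from the detected genes. Their median was 145 CPM, beside 137 CPM for the 377 detected genes, and 5 of the 10 lay above that value. Above 1000 CPM lay 4 of the 10, against 91 of all 377. The 153 detected genes in coding introns, the 10 included, had a median of 92.6 CPM and the 224 other detected genes 158 CPM. Coding-intron genes took 38.8% and 38.7% of the gene counts of replicates 1 and 2, and the 10 genes made up 5.04% and 4.87% of that share. Of the 688 coding-intron genes 22.2% were detected. The 10 are well-known microRNAs picked by name, so their full detection is not comparable with this share.

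**Figure D3:**
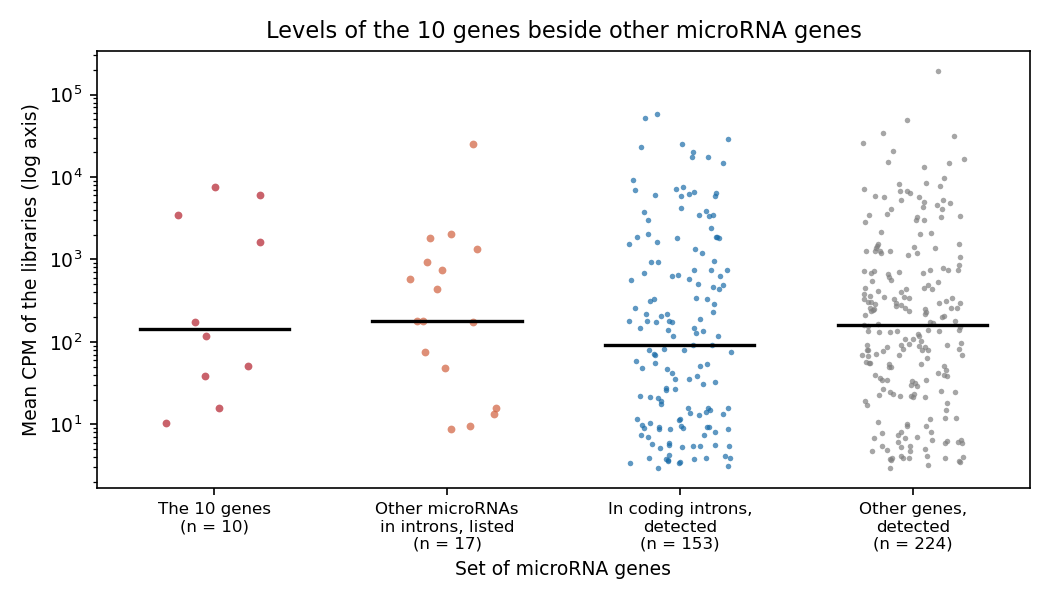
Mean CPM (log axis) of the 10 genes, of the 17 detected genes of a list of other microRNAs in introns of neuronally expressed hosts, of all 153 detected genes in introns of protein-coding genes, and of the 224 other detected genes; each point is a gene and lines are medians. The sets overlap in membership (the first and the listed genes are also among the 153), and their highest levels differ: 7548 CPM for the 10 (Mir342), 25057 for the list (Mir149), 58085 for the coding-intron genes (Mirlet7g) and 195743 for the others (Mir99a).

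A list of other microRNAs in introns of genes expressed in neurons, some of whose hosts are also expressed widely, had 19 measured genes left after the annotation check, 17 of them detected. Their summed level was 36522 CPM in replicate 1 and 30781 in replicate 2, most of it from Mir149 in Gpc1, a glypican, at 25057 ± 2465 CPM. Mir153 in Ptprn2, a protein of secretory vesicles, followed at 2027 ± 63.0 CPM, Mir1298 in the serotonin receptor gene Htr2c at 1832 ± 739 and Mir204 in the channel gene Trpm3 at 1339 ± 325. Mir342, Mir708 and Mir139 each stood above all of these but Mir149. The Htr2c microRNAs and Mir204 are also known from choroid plexus. Which cells their reads came from was not tested. The median of the detected genes of this list was 182 CPM.

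By distance in log2(CPM + 1) over the 2 libraries, the detected genes nearest to Mir342 were Mir137 (7852 ± 1559 CPM) and Mir369 (7177 ± 446), at distances of 0.12 and 0.14. Nearest to Mir708 were Mir98, in Huwe1, at 5843 ± 775 CPM (distance 0.10) and Mir181a-1 at 6377 ± 220 (0.21). Mir139 had Mir484 at 3416 ± 91.7 CPM (0.06) and Mir301, in Ska2, at 3365 ± 165 (0.09). With 1 condition, this likeness is one of level alone.

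The libraries differed in direction among the 10 genes. Each ratio divides the TMM-scaled level in replicate 2 by that in replicate 1, on a log2 scale, and was tested by a two-sided exact binomial test with Benjamini-Hochberg adjustment over 475 genes. Of the 10 genes 5 passed at an adjusted p under 0.05, 2 higher in replicate 2 (Mir708 and Mir582) and 3 lower (Mir342, Mir598 and Mir346). This stands beside 38.9% of all tested genes, with 18.1% higher and 20.8% lower, and 33.8% of the 210 tested genes in coding introns. The count is therefore close to the background. The test covers counting error only and compares the libraries, not conditions. With the spread between libraries estimated by edgeR (biological coefficient of variation 14.3%), its exact test called 0 of the 10 genes. By that test 1 of the 10, against 31 of 475, had an unadjusted p under 0.05. The spread was estimated from the same 2 libraries, so the differences tested also set it and few calls can result.

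Mir708 had a log2 ratio of 0.44 (95% interval 0.41 to 0.46, exact binomial adjusted p = 2.35e-245), or 1.35-fold. Its seed relative Mir28a was also higher, at 0.29 (exact binomial adjusted p = 1.54e-09). Mir342 had -0.16 (-0.19 to -0.14, adjusted p = 6.90e-43 by the same exact test). Within a library the ratio of Mir708 to Mir342 needs no scaling, and it went from 0.657 in replicate 1 to 0.998 in replicate 2. Within the set, a copy among annotated microRNA transcripts was found for Mir708 alone, so its count may be lowered by multi-mapped reads. The search for copies covered those transcripts only, so a loss of such reads from the other genes is not excluded. Multi-mapped reads made up 40.6% of replicate 1 and 43.9% of replicate 2. Their part in the difference was not tested.

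Mir598 had a log2 ratio of -0.25 (-0.30 to -0.20, exact binomial adjusted p = 1.62e-22) and Mir346 one of -0.34 (-0.53 to -0.15, exact binomial adjusted p = 0.00131). Mir582 had the largest ratio of the 10, 0.97 with an interval of 0.30 to 1.68 (exact binomial adjusted p = 0.00869), from 30 and 52 counts. None of the 10 exceeded an absolute log2 ratio of 1, which 3.37% of all tested genes did along with an adjusted p under 0.05. The 5 genes that did not pass were Mir139 at 0.02, Mir488 at 0.06, Mir592 at 0.11, Mir326 at 0.19 and Mir504 at 0.48. Their intervals all include 0, from -0.02 to 0.05 for Mir139 and from -0.04 to 1.02 for Mir504. The interval of Mir504 is wide at 56 and 69 counts, although its ratio is about that of Mir708. In size the ratios were ordinary, since 9 of the 10 lay within 1.5-fold, as did 88.6% of the detected genes.

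**Figure D4:**
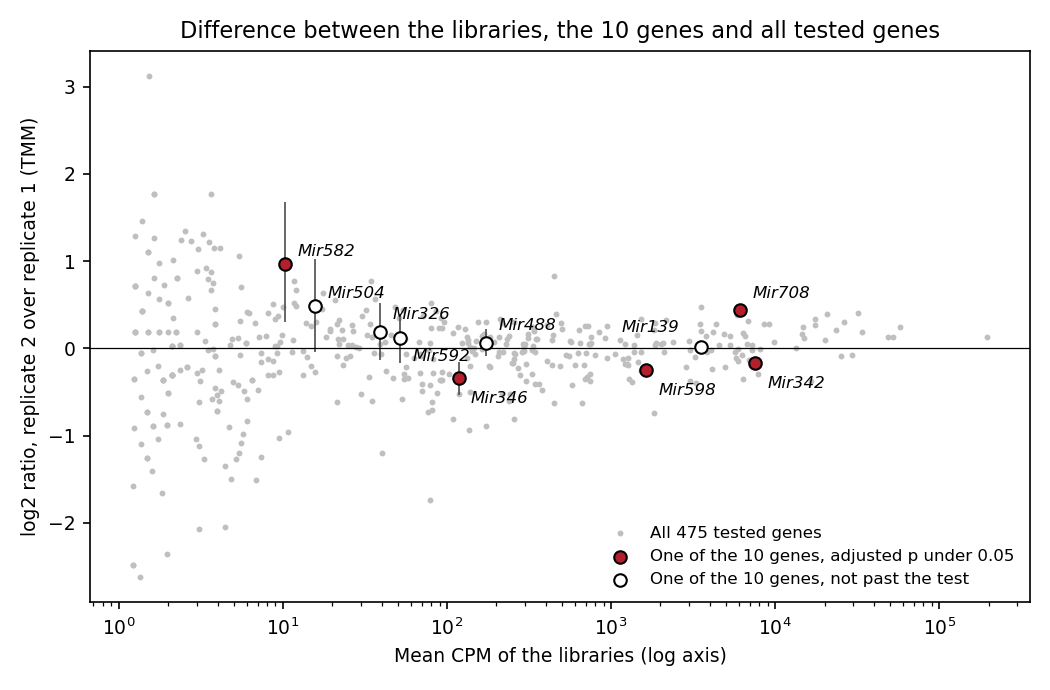
Log2 ratio of replicate 2 over replicate 1 (TMM) against mean CPM (log axis) for all 475 tested genes (grey) and the 10 genes (filled where the exact binomial test passed, open where it did not); bars are exact 95% intervals from counts. Mir708 and Mir582 lie above 0 and Mir342, Mir598 and Mir346 below, and the intervals widen towards low levels.

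Scaling moved all ratios together. With library totals in place of TMM every ratio was lower by 0.11, and with DESeq2 size factors by 0.05. The 5 genes past the test kept their sign and passed under both. Mir139, at 0.02 with TMM, stood at -0.09 with library totals (exact binomial adjusted p = 4.12e-07) and at -0.03 with DESeq2 size factors, so its sign depended on the scaling. Mir488 likewise went from 0.06 to -0.05 with library totals.

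**Figure D5:**
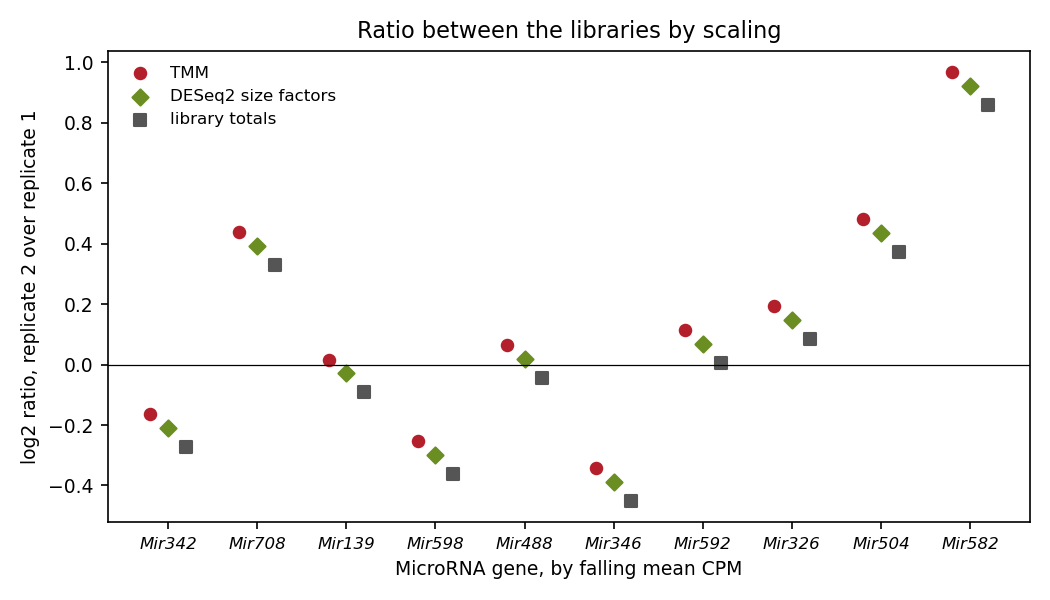
Log2 ratio of replicate 2 over replicate 1 for each of the 10 genes under 3 scalings: TMM (circles), DESeq2 size factors (diamonds) and library totals (squares). Points above 0 are higher in replicate 2; Mir139 and Mir488 cross 0, while Mir342, Mir708, Mir598, Mir346 and Mir582 stay on 1 side.

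Markers of other cells also differed between the libraries by the exact binomial test, which covers counting error only. Of all 475 tested genes, 18.1% passed it as higher in replicate 2 and 20.8% as lower. The 6 choroid plexus markers (Mir449 and Mir34 genes and Mir204) summed to 9789 CPM in replicate 1 and 6993 in replicate 2, with 4 of the 6 past the exact test as lower and a median log2 ratio of -0.43. The list of other neuronal-host microRNAs had 11 of 19 lower and 2 higher past the test, and a median of -0.31. Of the 11 lower genes, 5 lie in the 1 gene Htr2c and 1 is the choroid plexus marker Mir204. The count thus does not describe neuronal hosts as a class. The median of the 10 genes was 0.09, and that of all tested genes 0.02. Choroid plexus is the epithelium that makes cerebrospinal fluid, and Mir204 is on that list and on the neuronal-host list. Endothelial Mir126a had 16042 and 18828 CPM (log2 ratio 0.34, past the test as higher). Neural progenitor and neuron microRNAs had 2 higher and 5 lower of 17 tested, and a median of 0.01. The erythroid markers, both past the test, went opposite ways: Mir451a had 123 and 34.3 CPM (log2 ratio -1.73) and Mir144 26.5 and 42.0 CPM (0.77). Their sum, 150 and 76.2 CPM, thus fell through Mir451a alone. Summed levels were 446 and 293 CPM for Hox-embedded microRNAs, 48.3 and 37.1 for striated muscle ones (4 of 6 at 0 in both libraries) and 1684 and 1597 for epithelial ones. The part of these cells in the ratios of the 10 genes was not tested. In whole tissue, fewer cells of a type, less RNA in each cell and a technical difference between the libraries cannot be told apart.

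Other microRNAs annotated in the same hosts had no reads. Mir6394 in Tenm4 and Mir1904 in Pde4d had 0 counts on either strand in both libraries, which allows up to 3 counts, or 0.729 CPM in replicate 1 and 0.767 in replicate 2. Expression from these hairpins was not detectable at this depth, although Mir708 in the same Tenm4 gene had 22352 and 26662 counts.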

How the data were processed

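Small RNA reads of 2 forebrain libraries were analysed from the whole-number counts per microRNA gene that the authors deposited, 1 table per library. Per the deposited read-me texts, the build was mm10 and the annotation M4. The aligner and counter were not given in the sources used here. Own-strand counts were used, and unmapped, multi-mapped and unassigned rows (16.7%, 40.6% and 3.99% of reads in replicate 1; 15.0%, 43.9% and 3.71% in replicate 2) stayed out of library sizes. Symbols, hosts and copies came from GENCODE M21 (GRCm38, the same build; 1894 of 1973 identifiers matched).

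CPM, TMM (edgeR 4.0.16), DESeq2 1.42.0 size factors and exact binomial tests (scipy 1.17.1) were computed here. The tests took genes with at least 10 counts together, and ratios had a prior count of 0.5. Only the binomial test and its ratios, scaled by library totals, were tried on simulated counts. Those counts held Poisson error alone, without added spread between libraries. Intervals are 95% and cover counting error only, since PCR copies are not independent molecules. A chi-square of 32540 on 376 degrees of freedom showed that the tables do not repeat 1 library. Members and lists were chosen with earlier results of these data known, and host groups were formed after the levels had been seen. Named genes were the 10, leading genes of lists, seed relatives, other microRNAs of the hosts and the 2 nearest genes of the 3 leading members; other markers were added for context. Alternatives were other scalings, filters, strands, denominators and an edgeR exact test. Of the listed neuronal-host genes, 1 was not measured and 1 was dropped as not intronic.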

Additional observations from a re-analysis of the deposited data

Results flagged for a closer look

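Reads on the strand opposite to Mir708, a column outside the main measurement, numbered 28 and 20 in replicates 1 and 2 (mean 24), above the 3 counts that a count of 0 allows. Of its reads on either strand they made up 0.125% for replicate 1, with 95% Wilson bounds of 0.0866 and 0.181, and 0.0750% for replicate 2, with bounds of 0.0485 and 0.116. The other 9 genes had 0 opposite-strand counts in both libraries. No gene is annotated on the other strand there, and 22 of the 1973 genes had more than 3 such counts in each library. There are no control samples.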

How the results depend on the processing

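The order of levels was the same in each library, and leaving out 1 library moved the summed share only between 1.89% and 1.96%. With all reads as denominator the share was 0.732%, and without Mir708, which has a copy, 1.31%. All 10 genes passed a detection floor of 1 count, and 9 passed one of 50, Mir582 being lost. Library totals turned the log2 ratios of Mir139 (-0.092) and Mir488 (-0.0457), and DESeq2 size factors that of Mir139 (-0.0296). With a dispersion estimated by edgeR, its exact test called 1 of 475 genes and 0 of the 10 (1 of the 10 at an unadjusted p under 0.05), against 185 and 5 by the exact binomial test. That dispersion was estimated from the same 2 libraries, so the differences tested also set it and few calls can result. Other scalings and filters called 4 to 6 of the 10. Library totals called 54 of 475 genes higher and 141 lower, DESeq2 size factors 67 and 118, against 86 and 99 with TMM. No paired analysis was possible because there is 1 group. The intervals of Mir504 and Mir582, at 30 to 69 counts, are the widest of the 10.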

Other observations

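Among 128 pairs of mature arms from different genes of the set, 1 pair shared 6 bases within its seeds: UACAGU lies at the end of the miR-139-5p seed and at the start of that of miR-582-5p, offset by 1 base. The genes of this pair, both in phosphodiesterase introns, stood 376-fold apart on average (SD 171). The longest stretch shared by miR-326-5p and miR-346-3p was GGCAGGG, 7 bases. These are descriptions of letters, chosen after the sequences were compared.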
